A study of Mus musculus with 59 samples.

Results

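The cortex of mice labelled heterozygous for both Mrpl40 and Slc25a1 (double het) was compared with the cortex of mice labelled heterozygous for Slc25a1 alone (Slc25a1 het), to ask what the Mrpl40 allele adds where the Slc25a1 allele is already present. The libraries were taken by their titles: 7 of Mrpl40 -/+,Slc25a1 -/+ and 7 of Mrpl40 +/+,Slc25a1 -/+, together 14 of the 59 libraries of the series. Each came from a different male animal, so that the spread is a spread between animals. Both groups carry the labelled Slc25a1 allele, and they differ by label only in Mrpl40. A further 9 cortex libraries labelled wild type (Mrpl40 +/+,Slc25a1 +/+) and 7 labelled Mrpl40 het (Mrpl40 -/+,Slc25a1 +/+) gave the same allele on the other background. The other tissue came from 7 and 7 hippocampus libraries of Slc25a1 het and double het. By animal number these are the same 14 animals, so that hippocampus is no independent replicate of cortex. The kind of allele, the strain, the age, the part of cortex taken and the time of day of collection are not stated in the sources at hand.

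Mrpl40 is a gene for a large subunit protein of the mitochondrial ribosome, which translates the few proteins encoded by mitochondrial DNA, all of them subunits of the oxidative phosphorylation complexes. Slc25a1 encodes the citrate carrier of the inner mitochondrial membrane, which exports citrate to the cytosol for the synthesis of fatty acids and cholesterol. Both genes lie in the mouse region that matches the human 22q11.2 deletion. In neurons, mitochondria supply ATP and buffer calcium at synapses, and the subunits of their respiratory complexes come from both genomes.

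Before any other result, the targeted genes were read in every library. Slc25a1 lay between 10.6 and 13.0 CPM (counts scaled to a common library size after TMM normalization) in 10 of the 14 libraries and between 20.8 and 24.0 CPM in the other 4. The 4 high libraries were Slc25a1 het replicates 3 and 4 (animals 12 and 13) and double het replicates 5 and 6 (animals 29 and 30). This goes against the Slc25a1 label that all 14 carry. Wild-type animals 6 and 7, outside the 14, enter the second comparison, the interaction tested below and the spread estimated over all 4 genotypes. They went against their label the other way. The genotypes are therefore given as labelled. The lowest, median and highest values of Slc25a1 were 10.9, 12.5 and 24.0 CPM in Slc25a1 het and 10.6, 11.4 and 21.6 CPM in double het, a difference in mean log2 CPM of -0.091 (exact permutation test, two-sided, p 0.587 over 3432 splits of 7 and 7 libraries).

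Mrpl40, the gene whose label differs, did not stand apart. Its lowest, median and highest values were 14.2, 17.6 and 19.0 CPM in libraries labelled Slc25a1 het and 15.0, 17.4 and 19.2 CPM in libraries labelled double het. The groups overlapped almost entirely, with 1 double het library above the highest Slc25a1 het library and 0 below the lowest. The difference in mean log2 CPM was -0.0026 (exact permutation test, two-sided, p 0.979), and edgeR gave a log2 difference of -0.0050 ± 0.065 (SE) with an adjusted p of 0.990. The sign of the permutation value turned to 0.056 without the 4 animals against the Slc25a1 label (exact permutation p 0.563). Since the kind of allele is not given, the level of the RNA does not check the Mrpl40 label.

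Library totals ranged from 21443017 to 30953322 counts in Slc25a1 het and from 22100013 to 29246582 in double het. Markers of cortical excitatory neurons, among them Slc17a7 and Tbr1, were measured in all 14 libraries, with a mean log2 CPM over the 12 markers between 6.98 and 7.34 in Slc25a1 het and between 7.09 and 7.30 in double het. All 37 mitochondrial gene rows were at 0 in every library.

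By the quasi-likelihood test of edgeR at a false discovery rate of 0.05, 12 of 20394 genes tested (0.0588%) differed between double het and Slc25a1 het: 5 were higher (0.0245%) and 7 lower (0.0343%). The higher genes were Ppm1e, Rprd1a, Reps2 and Cpeb2, which encode proteins, and Gm10222, a nuclear copy of a mitochondrial gene. The lower genes were Malat1, an abundant nuclear long non-coding RNA, the non-coding RNA B830012L14Rik, and the single-exon predicted transcripts Gm43318, Gm43341, Gm44229, Gm44677 and Gm38384. At an unadjusted p under 0.05 stood 2023 genes, 1037 higher (5.08%) and 986 lower (4.83%), and the ranges of the groups did not overlap for 14 higher genes (0.0686%) and 14 lower genes (0.0686%). No gene passed when the 14 libraries were fitted alone, without the 4 animals against the Slc25a1 label (and the 2 in wild type), or when a fold of at least 1.2 was tested, and the DESeq2 Wald test called 65, including all 12. Without those animals Malat1, Gm43318 and Reps2 kept differences of like size, -0.26, -0.54 and 0.19, with edgeR adjusted p of 0.113, 0.113 and 0.252.

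Malat1 stays in the nucleus, at bodies rich in splicing factors. Its lowest, median and highest values were 1955, 2209 and 2580.1 CPM in Slc25a1 het and 1734, 1869 and 2039.8 CPM in double het. Wild type ranged over 1939 to 2352 CPM and Mrpl40 het over 2218 to 2308 CPM. In all, 6 of 7 double het libraries lay below the lowest Slc25a1 het library, so that the ranges overlapped. The log2 difference was -0.25 ± 0.046 (SE), with an edgeR adjusted p of 0.0333. In bulk tissue, fewer cells of a type and less RNA per cell cannot be told apart.

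B830012L14Rik, a spliced long non-coding RNA on chromosome 12 (109695586 to 109702587, plus strand, GENCODE vM21 on GRCm38), had values of 2.52, 3.60 and 3.79 CPM in Slc25a1 het and 1.11, 2.07 and 2.48 CPM in double het, lowest, median and highest. All 7 double het libraries lay below every Slc25a1 het library. It fell by 0.75 ± 0.15 (SE) on the log2 scale (edgeR adjusted p 0.0375).

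The other 5 lower genes carry the GENCODE type TEC (regions held for experimental checking), which marks regions with signs of transcription and no established gene structure, and each is annotated with 1 exon. Gm43318 had 8.93, 9.71 and 12.9 CPM in Slc25a1 het and 6.62, 6.96 and 8.53 CPM in double het, again as lowest, median and highest. Gm44677 had 13.7, 15.9 and 18.3 CPM and 11.3, 13.1 and 13.4 CPM in the same order. For both, all 7 double het libraries lay below every Slc25a1 het library.

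The log2 difference was -0.52 ± 0.091 (SE) for Gm43318 and -0.34 ± 0.070 for Gm44677, with edgeR adjusted p of 0.0333 and 0.0423. Gm43341 ranged over 4.27 to 6.62 CPM (median 5.56) in Slc25a1 het and 2.51 to 4.94 CPM (median 3.44) in double het, a log2 difference of -0.60 ± 0.11 (adjusted p 0.0375), and 5 of 7 double het libraries lay below the lowest Slc25a1 het library. Gm44229 gave -0.48 ± 0.098 (adjusted p 0.0407) and Gm38384 -0.70 ± 0.14 (adjusted p 0.0375), with 5 and 6 of 7 double het libraries below the lowest Slc25a1 het library. Their levels were low, with medians in Slc25a1 het of 9.43 CPM for Gm44229 and 2.37 CPM for Gm38384.

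Where these transcripts lie was read from GENCODE vM21 on GRCm38. Gm43318 (chromosome 5, 48948021 to 48949969) and Gm43341 (chromosome 5, 48978278 to 48979585) lie on the minus strand inside Kcnip4, which encodes a protein that binds and modulates potassium channels. Gm44677 (chromosome 7, 91627272 to 91631010, plus strand) lies inside Dlg2, a scaffold protein of the postsynaptic density, and Gm44229 (chromosome 6, 80445350 to 80447836, plus strand) inside Lrrtm4, an adhesion protein of excitatory synapses. Each of these 4 is on the same strand as its host gene and overlaps no annotated exon of it, so that they are intronic. Gm38384 (chromosome 8, 105633750 to 105634871, plus strand) lies inside no protein-coding gene on its strand.

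Gm43318, Gm43341 and Gm44229 hold long runs of A on the transcript strand. Per the labels' protocols, poly(A) RNA was selected with oligo d(T) beads and copied from random primers. The stretches around the longest run, with the run in capitals and 30 bases on each side, are given 5′ to 3′ on GRCm38 to show what these regions look like: Gm43318 at chr5:48948036-48948106 (minus strand), Gm43341 at chr5:48978545-48978621 (minus strand) and Gm44229 at chr6:80445529-80445608 (plus strand).
Gm43318: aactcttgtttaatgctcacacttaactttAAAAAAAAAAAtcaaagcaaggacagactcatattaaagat
Gm43341: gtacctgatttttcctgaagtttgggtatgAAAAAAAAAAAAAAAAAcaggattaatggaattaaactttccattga
Gm44229: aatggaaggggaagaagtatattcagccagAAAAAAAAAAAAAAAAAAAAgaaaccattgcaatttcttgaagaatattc
The runs are 11, 17 and 20 bases long, while the longest runs in Gm44677 and Gm38384 are 7 and 6 bases. Among the lower genes of other types, the longest run is 12 bases in Malat1 and 6 bases in B830012L14Rik. A run of 10 or more A stood in 257 of 918 TEC genes tested (28%) and in 2861 of 14949 protein-coding genes tested (19.1%), counted on the transcript strand of the longest transcript, whose length differs between the types. The median log2 difference was -0.21 in TEC genes with such a run and -0.12 in those without. Among the 514 TEC genes inside a tested protein-coding gene, 174 (33.9%) held such a run. Their medians lay closer together, -0.27 with a run and -0.21 without. The part of such runs in these differences was not tested.

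TEC genes as a class lay lower in double het. This class was looked at after the 7 lower genes were seen and is described without a test. Of 918 TEC genes tested, 687 (74.8%) lay below Slc25a1 het, with a median log2 difference of -0.15, against 51.3% and a median of -0.0032 over all 20394 genes and 48.7% and 0.0027 over 14949 protein-coding genes. At an unadjusted p under 0.05, 162 TEC genes were lower (17.6%) and 10 higher (1.09%), beside 4.83% and 5.08% of all genes and 3.77% and 6.05% of protein-coding genes. The median was -0.13 in the 264 TEC genes whose mean log2 CPM was 1 or more.

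The difference was larger for TEC genes inside other genes. Of the 514 TEC genes that lie within a tested protein-coding gene on the same strand, 433 (84.2%) were lower, with a median of -0.23, and 495 of the 514 overlap no exon of the host. Their 340 host genes had a median log2 difference of 0.022, and 438 of the 514 TEC genes lay below their own host. Of the 396 TEC genes inside no protein-coding gene on their strand, 248 (62.6%) were lower, with a median of -0.054.

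The hosts with the most TEC genes show the same direction. Kcnip4 holds 22 tested TEC genes, all 22 lower and 15 of them at an unadjusted p under 0.05, with a median of -0.38, while Kcnip4 itself differed by -0.014 ± 0.063 (SE, edgeR adjusted p 0.969). Dlg2 holds 16, all 16 lower, with a median of -0.36 beside 0.049 ± 0.040 for Dlg2 (adjusted p 0.736). Cntnap2, which encodes a neuronal adhesion protein, holds 11, of which 10 were lower, with a median of -0.36 beside 0.040 ± 0.037 for Cntnap2 (adjusted p 0.781). Genes inside 1 host share its locus and are not independent of each other. These hosts were chosen after their values were seen, as those with 11 or more tested TEC genes, and Adgrb3, the fourth, had 9 of 11 lower.

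Per library, the mean log2 CPM of the 514 intragenic TEC genes was 0.0084, 0.21 and 0.41 in Slc25a1 het and -0.054, 0.0062 and 0.076 in double het, lowest, median and highest. The library Slc25a1 het replicate 1 lay at the double het level, and the other 6 lay above every double het library. Replicate 1 also had the lowest Malat1 of Slc25a1 het (1955 CPM), and replicate 5 the highest of both (2580 CPM and 0.41). In double het the lowest and highest libraries were replicates 5 and 6 for these TEC genes and replicates 4 and 7 for Malat1. Whether Malat1 and the TEC genes move together across libraries was not tested. In wild type the TEC mean ranged over -0.037 to 0.28 and in Mrpl40 het over 0.10 to 0.29. The median difference of these genes was -0.26 without the 4 animals against the Slc25a1 label and -0.22 after offsets for trends in length and GC content, and it stayed between -0.27 and -0.20 over 22 alternatives. Log2 differences correlated with the GC content of the longest transcript (Spearman's correlation -0.34) and with the length of the gene's merged exons (0.20). These values are across 12872 genes whose mean log2 CPM was 2 or more, and genes are not independent replicates.

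**Figure D1:**
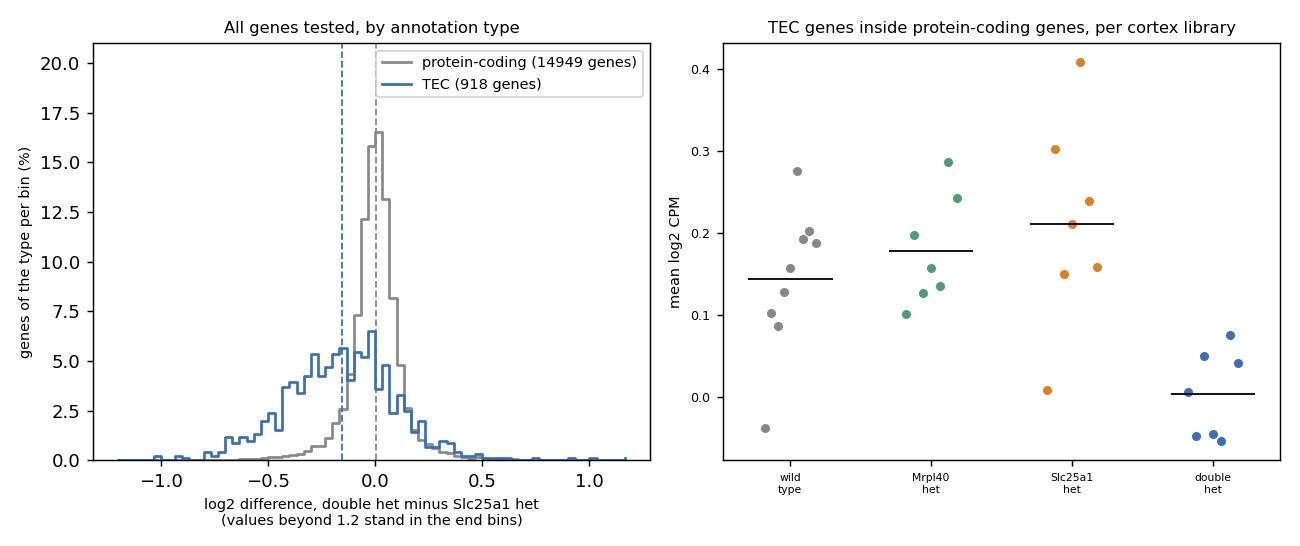
Left, share of genes per bin of log2 difference (double het minus Slc25a1 het, cortex) for 14949 protein-coding and 918 TEC genes, with medians as dashed lines at 0.0027 and -0.15. Right, mean log2 CPM of the 514 TEC genes inside protein-coding genes in each cortex library (points) with group means (lines); the 7 double het libraries lie between -0.054 and 0.076, and 6 of 7 Slc25a1 het libraries above them.

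Among the higher genes, Reps2 encodes a protein that binds Ral-interacting proteins in endocytosis. Its lowest, median and highest values were 162, 178 and 183 CPM in Slc25a1 het and 192, 197 and 213 CPM in double het. All 7 double het libraries lay above every Slc25a1 het library, and the log2 difference was 0.17 ± 0.035 (SE, edgeR adjusted p 0.0377).

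Ppm1e encodes a serine/threonine phosphatase that acts on PAK kinases and is abundant in brain. It ranged over 177 to 212 CPM (median 193) in Slc25a1 het and 196 to 239 CPM (median 227) in double het, with a log2 difference of 0.21 ± 0.042 (adjusted p 0.0375). Cpeb2 encodes an RNA-binding protein that controls translation through cytoplasmic polyadenylation elements, and ranged over 68.6 to 82.0 CPM (median 76.6) and 81.4 to 90.6 CPM (median 88.2), a difference of 0.21 ± 0.043 (adjusted p 0.0384). Rprd1a encodes a protein that binds the tail of RNA polymerase II, and ranged over 73.1 to 84.9 CPM (median 80.5) and 80.9 to 99.1 CPM (median 92.6), a difference of 0.19 ± 0.038 (adjusted p 0.0375). For each of Ppm1e, Cpeb2 and Rprd1a, 6 of 7 double het libraries lay above the highest Slc25a1 het library. With offsets for trends in length and GC content, none of the 4 protein-coding genes passed, while all but Gm44229 of the 7 lower genes and Gm10222 did.

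**Figure D2:**
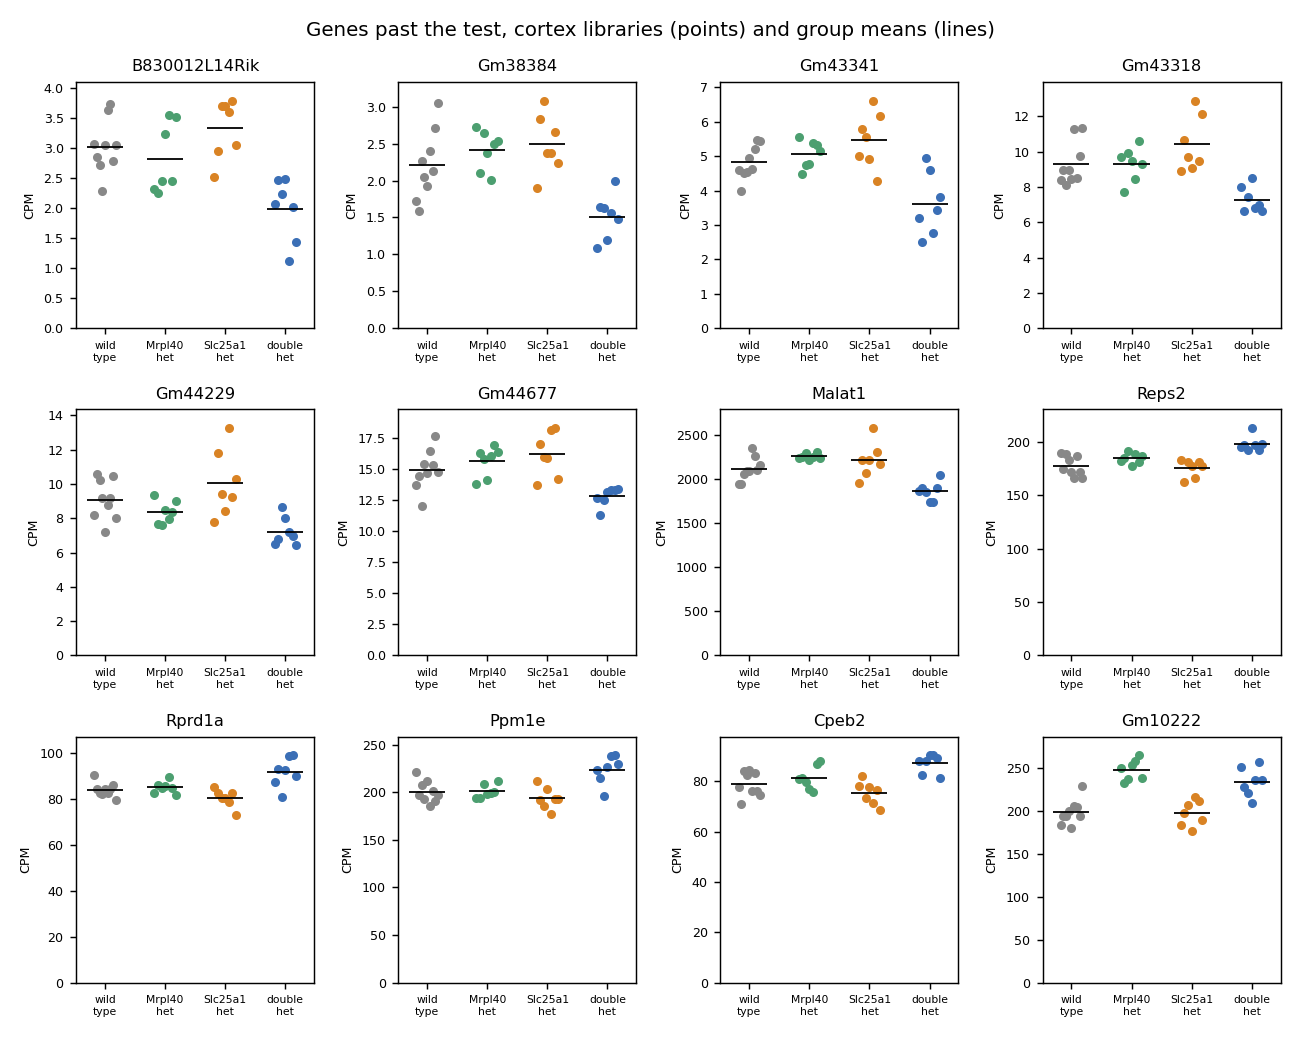
CPM of the 12 genes past the test in each cortex library (points) of the 4 labelled genotypes, with group means (lines); each y axis starts at 0. Reps2 in double het lies between 192 and 213 CPM, above all 7 Slc25a1 het libraries, and Gm43318, B830012L14Rik and Gm44677 in double het lie below all 7.

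The genes next by p, given as values and not as calls, included the same gene types. Wnk3, a kinase that regulates cation-chloride cotransporters, had a log2 difference of 0.17 ± 0.039 (SE), and Nebl, an actin-binding protein, 0.17 ± 0.040; for both, all 7 double het libraries lay above every Slc25a1 het library, with an edgeR adjusted p of 0.0931 each. Arhgap26, a GTPase-activating protein, had 0.16 ± 0.037 (adjusted p 0.0931). The lower ones, Gm38263, Gm45183 and Gm48225, are TEC genes, with differences of -0.91 ± 0.19, -0.67 ± 0.14 and -0.87 ± 0.20 and adjusted p of 0.0522, 0.0545 and 0.0871. Their levels were low, with medians of 1.34, 3.94 and 1.70 CPM in Slc25a1 het and 0.70, 2.75 and 0.94 CPM in double het. In the same order, 7, 5 and 1 of 7 double het libraries lay below the lowest Slc25a1 het library.

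Gm10222 is 1 of 7 annotated copies of mitochondrial genes that stand side by side on the minus strand of chromosome 1 (24611535 to 24616197 on GRCm38). Its whole transcript of 294 bases (chr1:24612407-24612700) is identical to bases 1 to 294 of mt-Nd4l, a complex I subunit gene of mitochondrial DNA, and both are printed 5′ to 3′ in GRCm38 because a read from one cannot be told apart from a read from the other. Capitals mark the only bases of mt-Nd4l that Gm10222 lacks, its stop codon.
Gm10222: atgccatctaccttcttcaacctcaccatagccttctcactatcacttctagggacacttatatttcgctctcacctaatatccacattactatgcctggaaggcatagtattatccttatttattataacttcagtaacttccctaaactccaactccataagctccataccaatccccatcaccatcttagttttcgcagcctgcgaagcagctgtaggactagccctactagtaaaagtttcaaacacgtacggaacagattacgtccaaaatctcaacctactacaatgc
mt-Nd4l: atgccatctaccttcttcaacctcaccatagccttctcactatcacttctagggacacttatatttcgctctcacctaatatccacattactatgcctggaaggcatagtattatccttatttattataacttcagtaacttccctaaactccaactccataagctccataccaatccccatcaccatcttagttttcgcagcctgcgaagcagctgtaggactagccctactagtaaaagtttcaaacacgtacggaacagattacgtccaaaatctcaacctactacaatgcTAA
Gm28439, Gm10925, Gm28437 and Gm28661 are likewise contained whole in mt-Nd4, mt-Atp6, mt-Co3 and mt-Co2. Of the stretches of 31 bases in Gm28438 and Gm29216, 99% and 97.2% occur in mt-Nd3 and mt-Co1. Since all mitochondrial rows hold 0 counts, the mitochondrial and the nuclear source of these counts cannot be told apart.

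All 7 copies lay higher in double het, and 1, Gm10222, passed the test. Gm10222 had 176, 197 and 216 CPM in Slc25a1 het and 209, 236 and 257 CPM in double het, lowest, median and highest, with 6 of 7 double het libraries above every Slc25a1 het library. Its log2 difference was 0.25 ± 0.049 (SE, edgeR adjusted p 0.0375). Gm28439 ranged over 820.4 to 945 CPM (median 904) and 935 to 1103 CPM (median 1016), also with 6 of 7 above, and gave 0.20 ± 0.043 (adjusted p 0.0720).

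The remaining copies ran from 0.11 ± 0.039 for Gm29216 (adjusted p 0.292) to 0.24 ± 0.066 for Gm28438 (adjusted p 0.185). Gm10925, the copy of the ATP synthase subunit gene mt-Atp6, had the highest level, 2183 to 2667 CPM (median 2300.3) in Slc25a1 het and 2549 to 2851 CPM (median 2649) in double het, and a difference of 0.19 ± 0.044 (adjusted p 0.0791). With offsets for trends in length and GC content, 6 of the 7 passed, and without the 4 animals against the Slc25a1 label none did, with differences of 0.15 at the median.

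In Mrpl40 het against wild type, a comparison that shares no library with the first, 5 of the 7 copies rose: Gm10222 by 0.32 ± 0.046 (SE, edgeR adjusted p 0.000177), Gm28439 by 0.32 ± 0.041 (2.34e-05), Gm10925 by 0.32 ± 0.041 (2.34e-05), Gm28437 by 0.24 ± 0.042 (0.00669) and Gm28661 by 0.22 ± 0.040 (0.0106). In the hippocampus of double het against Slc25a1 het, Gm10222 differed by 0.32 ± 0.066 (adjusted p 0.201) and Gm28439 by 0.34 ± 0.066 (adjusted p 0.201). All 7 copies lay higher in each of the 3 comparisons, with medians of 0.19 in cortex on the Slc25a1 het background, 0.29 on the wild-type background and 0.28 in hippocampus. The copies share a template with each other, so that their number adds no replicates. The hippocampus libraries come from the same animals as the cortex libraries of double het and Slc25a1 het.

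**Figure D3:**
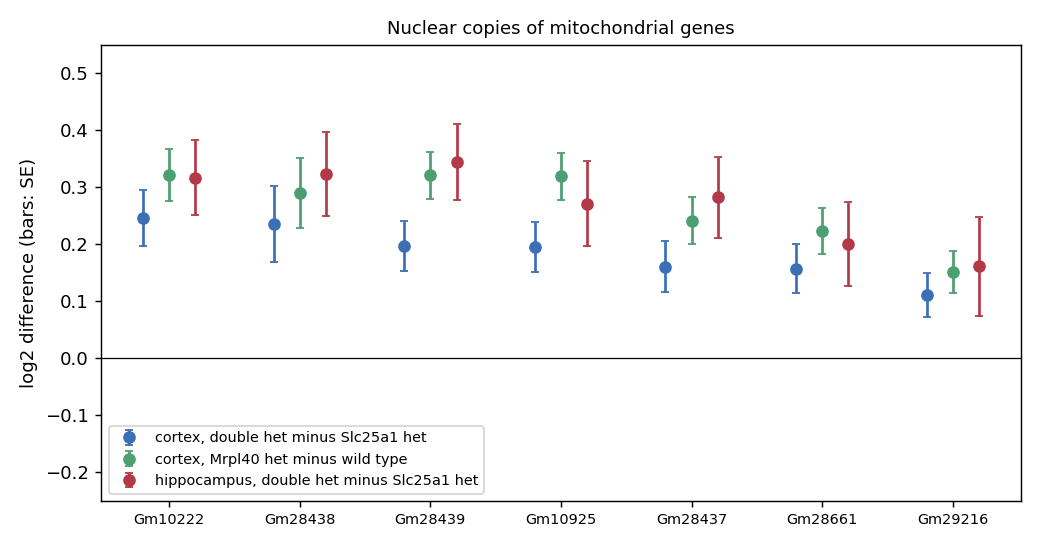
Log2 difference (points) with its SE (bars) of the 7 nuclear copies of mitochondrial genes in 3 comparisons. All points lie above 0, from 0.11 for Gm29216 in cortex, double het minus Slc25a1 het, to 0.34 for Gm28439 in hippocampus.

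The nuclear genes of the machinery that Mrpl40 belongs to held no call. Of 49 proteins of the mitochondrial large subunit, 31 lay higher and 18 lower, with a median log2 difference of 0.024 and 0 past the test, and of 31 of the small subunit 20 lay higher and 11 lower, with a median of 0.023. Mrpl35 came first by p among large subunit genes, at 0.15 ± 0.051 (SE, edgeR adjusted p 0.270), followed by Mrpl27 at 0.13 ± 0.048 (0.342). Mrps35 and Mrps17 of the small subunit had 0.10 ± 0.051 and 0.064 ± 0.033. On the wild-type background the medians were -0.024 and -0.036, with 13 of 49 and 10 of 31 higher. Over 22 alternatives the median of the first comparison ran from 0.0045 (without Slc25a1 het replicate 5) to 0.036 (without Slc25a1 het replicate 7) for the large subunit and from 0.013 (without double het replicate 6) to 0.032 (without double het replicate 2) for the small.

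Of 29 factors of mitochondrial transcription and translation 23 lay higher (median 0.027), among them Lrpprc, which stabilises mitochondrial mRNAs, at 0.10 ± 0.038 (edgeR adjusted p 0.343), while Oxa1l, the insertase for newly made proteins, had -0.069 ± 0.036. Complex I had 21 of 36 nuclear subunits higher (median 0.018), with Ndufb2 at 0.16 ± 0.056 and Ndufb7 at -0.080 ± 0.037. Complex IV had 3 of 12 higher (median -0.031), with Cox4i1 at -0.064 ± 0.031 and Cox8a at -0.062 ± 0.031. No gene of these lists, of complexes II and III (11 of 14 higher) or of the ATP synthase (8 of 15 higher) passed the test. With the length and GC offsets Cox4i1 had -0.020 and Cox8a -0.0033. Over 22 alternatives the median of complex IV ran from -0.041 (without double het replicate 4) to 0.0017 (with the length and GC offsets), that of complex I from 0.0041 (without Slc25a1 het replicate 5) to 0.038 (without the 4 animals) and that of the transcription and translation factors from 0.011 (without double het replicate 4) to 0.040 (without double het replicate 2).

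The genes around citrate also held no call. Of 26 genes of the citrate cycle and of citrate use, 20 lay higher (median 0.016), with Idh3b, a subunit of isocitrate dehydrogenase, at 0.070 ± 0.028 (SE, edgeR adjusted p 0.363) and Dld at 0.087 ± 0.041. Of 23 genes of cholesterol synthesis 13 lay higher (median 0.016), with Hsd17b7 at 0.16 ± 0.050 (adjusted p 0.215) and Fdft1, squalene synthase, at 0.078 ± 0.045. Of 26 genes of glycolysis and pyruvate entry 18 lay higher (median 0.029), with Pgam1 at 0.097 ± 0.037 and Dlat at 0.071 ± 0.032. Among 36 mitochondrial carriers 24 lay higher, and those first by p were the iron carriers Slc25a28 at -0.12 ± 0.042 and Slc25a37 at -0.13 ± 0.047. Over 22 alternatives the median of the citrate list ran from 0.0066 (without Slc25a1 het replicate 6) to 0.026 (without the 4 animals), that of glycolysis from 0.014 (without Slc25a1 het replicate 6) to 0.048 (without Slc25a1 het replicate 7) and that of cholesterol synthesis from -0.014 (without double het replicate 3) to 0.043 (without the 4 animals).

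Heat shock proteins and cytosolic ribosomal proteins leaned in opposite directions, with 0 members past the test. Of 20 heat shock genes 17 lay higher (median 0.11, against -0.0032 over all genes), 8 of them at an unadjusted p under 0.05 beside the 5.08% of all genes that stood higher at that p. Hspa4l and Hspa4, both co-chaperones of the Hsp110 family, had 0.15 ± 0.044 and 0.15 ± 0.045 (SE, edgeR adjusted p 0.185 and 0.217). The mean log2 CPM of the list was 6.40, 6.60 and 6.69 in Slc25a1 het and 6.53, 6.73 and 6.79 in double het, so that the groups overlapped. The list's median was 0.15 in hippocampus and -0.0016 for Mrpl40 het against wild type.

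Of 79 cytosolic ribosomal protein genes 70 lay lower (median -0.054), 13 of them at an unadjusted p under 0.05, beside the 4.83% of all genes that stood lower at that p. Rpl37 and Rpl30 came first by p, with -0.16 ± 0.051 and -0.15 ± 0.050 (SE, edgeR adjusted p 0.234 and 0.248). The medians were -0.053 for Mrpl40 het against wild type and -0.054 in hippocampus. These transcripts are short and many have processed copies, between which counting can split reads. The part of such splitting in these values was not tested. Of 28 measured genes of the ATF4 and mitochondrial stress response, 13 lay higher and 15 lower (median -0.011), and none stood at an unadjusted p under 0.05; over 22 alternatives that median ran from -0.045 (without double het replicate 1) to 0.017 (without double het replicate 5).

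Of 18 measured circadian clock genes 13 lay lower (median -0.12), 7 of them at an unadjusted p under 0.05 beside 4.83% of all genes, and 0 passed the test. Without Slc25a1 het replicate 6 the median was -0.078. The transcriptional repressors Ciart and Bhlhe41 came first by p. Ciart ranged over 17.4 to 26.2 CPM (median 20.9) in Slc25a1 het and 14.4 to 20.7 CPM (median 15.4) in double het, a difference of -0.36 ± 0.13 (edgeR adjusted p 0.303), and Bhlhe41 had -0.21 ± 0.073 (0.288). The time of collection of each animal is not stated in the sources at hand, and its part in these values was not tested.

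Immediate early genes, which rise within minutes of neuronal activity, had the lowest median of the lists, -0.26, with 21 of 24 lower, yet no member stood at an unadjusted p under 0.05. The list's mean log2 CPM spread over 5.56 to 6.77 in Slc25a1 het and 5.18 to 6.46 in double het. The median was -0.13 without Slc25a1 het replicate 7 and -0.40 without double het replicate 1. Jund, first by p, had -0.14 ± 0.071 (SE, edgeR adjusted p 0.506). In hippocampus the direction was the other way, with 22 of 24 higher and a median of 0.18, and the difference between the tissues was not tested for the list.

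Genes of synaptic transmission held no call either. Of 21 genes of GABA synthesis, transport and receptors 16 lay higher (median 0.037), led by the receptor subunit Gabrb2 with 18.3, 27.5 and 30.9 CPM in Slc25a1 het and 30.3, 33.5 and 41.9 CPM in double het, lowest, median and highest. Its log2 difference was 0.41 ± 0.13 (SE, edgeR adjusted p 0.220), and that of the GABA-synthesising enzyme Gad2 0.16 ± 0.052 (0.256). Of 28 genes of presynaptic vesicle release 23 lay higher (median 0.031), with the vesicle protein Sv2b at 0.17 ± 0.046 (0.131) and the active-zone protein Pclo at 0.13 ± 0.038 (0.196). Over 22 alternatives the median of the release list ran from 0.011 (without double het replicate 5) to 0.044 (without double het replicate 6) and that of the GABA list from 0.025 (without Slc25a1 het replicate 2) to 0.057 (without Slc25a1 het replicate 1).

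Chrna7, the alpha 7 subunit of the nicotinic acetylcholine receptor, had, with Slc38a3, the smallest adjusted p of the lists of synaptic transmission. It ranged over 2.94 to 4.53 CPM (median 3.25) in Slc25a1 het and 4.16 to 5.47 CPM (median 4.66) in double het, with 4 of 7 double het libraries above the highest Slc25a1 het library. The difference was 0.46 ± 0.11 (SE, edgeR adjusted p 0.0931), beside 0.078 ± 0.099 for Mrpl40 het against wild type and 0.19 ± 0.13 in hippocampus. Its mean in cortex was 4.68 CPM in wild type, 4.94 in Mrpl40 het, 3.44 in Slc25a1 het and 4.73 in double het. Slc25a1 het was thus the low group, and double het lay near the wild-type level. The other 17 measured receptors and modulators of this list brought the list to a median of 0.0054, which ran from -0.040 (without Slc25a1 het replicate 6) to 0.058 (without Slc25a1 het replicate 4) over 22 alternatives. Chrm2, a muscarinic receptor, had 0.19 ± 0.073.

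Slc38a3, a glutamine transporter of astrocytes, had the same adjusted p in the other direction. Its lowest, median and highest values were 61.5, 69.6 and 75.2 CPM in Slc25a1 het and 55.5, 58.4 and 64.0 CPM in double het, and 5 of 7 double het libraries lay below the lowest Slc25a1 het library. The difference was -0.20 ± 0.047 (SE, edgeR adjusted p 0.0931). The glutamine and glutamate cycle as a list had 8 of 19 genes higher (median -0.021). Among 40 glutamate receptor and scaffold genes 19 lay higher (median -0.0011), with Gria3 at 0.099 ± 0.034 and Gria1 at 0.13 ± 0.047. Over 22 alternatives the median of the glutamine and glutamate cycle ran from -0.034 (without double het replicate 6) to 0.0035 (without double het replicate 7) and that of the glutamate receptor list from -0.017 (without the 4 animals) to 0.012 (without double het replicate 3).

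Of 34 measured neighbours of Mrpl40 and Slc25a1 in the region matching 22q11.2, 16 lay higher and 18 lower (median -0.012, -0.021 to 0.0060 over 22 alternatives) and 0 passed the test. First by p were Rtn4r, a receptor for inhibitors of axon growth, at -0.14 ± 0.047 (edgeR adjusted p 0.240), and Cdc45, a replication factor, at 0.55 ± 0.18 (0.260). The metallothioneins Mt1, Mt2 and Mt3, which bind zinc, all lay lower (median -0.20), with Mt1 at -0.20 ± 0.083 (0.412) and Mt3 at -0.080 ± 0.037 (0.464).

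**Figure D4:**
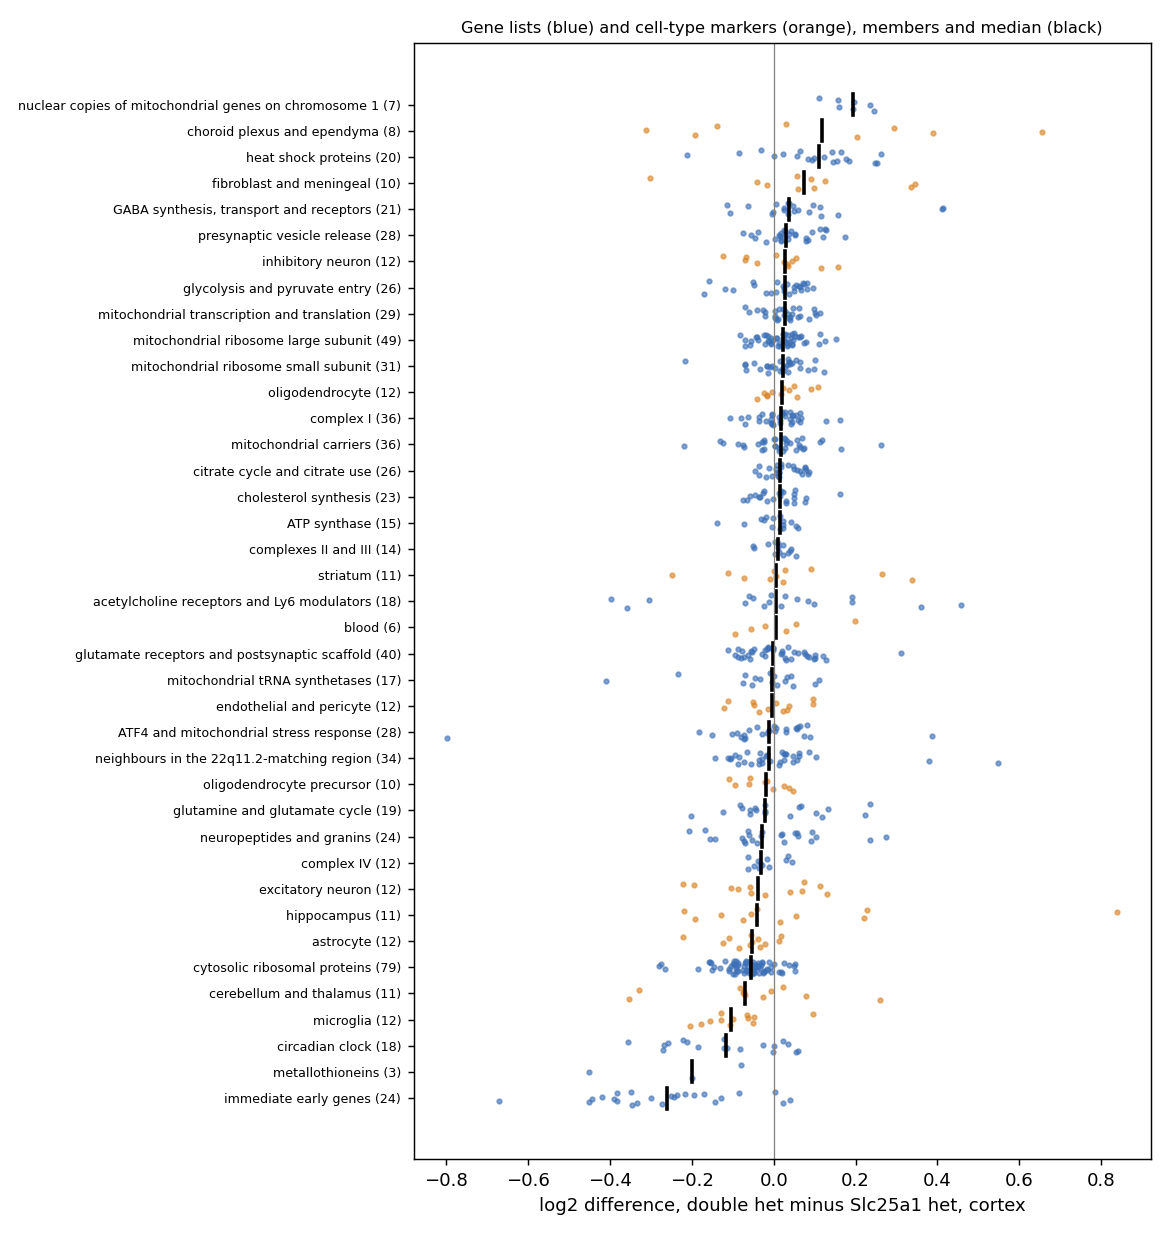
Log2 difference (double het minus Slc25a1 het, cortex) of each measured member of 39 lists (points) and the list's median (black bar), with the number measured in brackets; blue lists are pathways and orange lists cell-type markers. The medians run from -0.26 for immediate early genes to 0.19 for the nuclear copies.

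Markers of cell types were read beside these lists. Microglia markers lay lower for 11 of 12 (median -0.10), 5 of them at an unadjusted p under 0.05 beside 4.83% of all genes, with C1qa, a complement subunit, at -0.20 ± 0.064 (SE, edgeR adjusted p 0.219) and the purinergic receptor P2ry12 at -0.16 ± 0.058 (0.326). Their summed level ranged from 402 to 469.8 CPM in Slc25a1 het and from 378 to 432 CPM in double het. Microglia markers also lay lower for 12 of 12 in Mrpl40 het against wild type (median -0.089) and in hippocampus (median -0.087), and no member passed the test in cortex double het.

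Astrocyte markers lay lower for 10 of 12 (median -0.054), with Sox9 at -0.22 ± 0.070 and the glutamate transporter Slc1a3 at -0.12 ± 0.053 (SE). The median was -0.025 without Slc25a1 het replicate 5, -0.027 without Slc25a1 het replicate 6 and -0.031 without double het replicate 7. Their summed level ranged from 4438 to 5405 CPM in Slc25a1 het and from 4377 to 4945 CPM in double het. Excitatory neuron markers had 5 of 12 higher (median -0.039), with Rorb, which the clock list also holds, at -0.22 ± 0.080 and Nrgn at -0.10 ± 0.052, inhibitory neuron markers 8 of 12 (median 0.029) and oligodendrocyte markers 7 of 12 (median 0.020). Over 22 alternatives the oligodendrocyte median ran from -0.073 (without double het replicate 6) to 0.16 (without Slc25a1 het replicate 4), the inhibitory neuron median from 0.0037 (without double het replicate 3) to 0.048 (without double het replicate 6) and the excitatory neuron median from -0.065 (without Slc25a1 het replicate 6) to -0.0087 (without the 4 animals). No marker was at 0 in all 14 libraries. The part of these markers in the other lists was not tested. Without the 4 animals against the Slc25a1 label the medians were -0.12 for microglia, -0.066 for astrocytes, 0.078 for heat shock proteins, -0.043 for cytosolic ribosomal proteins, -0.11 for clock genes and -0.19 for immediate early genes.

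The second comparison asked whether the Mrpl40 allele gives the same differences where the label carries no Slc25a1 allele. For Mrpl40 het against wild type edgeR called 6 of 20394 genes (0.0294%), 5 of them nuclear copies and the other the predicted gene Gm7331 (-0.18 ± 0.035, SE, adjusted p 0.0342), named after its value was seen. None of the other 11 genes called on the Slc25a1 het background passed there. Malat1 differed by 0.097 ± 0.043 (SE, adjusted p 0.688), Gm43318 by -0.00095 ± 0.084, Reps2 by 0.057 ± 0.033 and Ppm1e by 0.0014 ± 0.039. TEC genes had a median of 0.022, with 45.6% lower. Across 20394 genes the log2 differences of both comparisons had a Pearson's r of 0.062 and a Spearman's correlation of 0.12.

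The difference between the backgrounds was tested as an interaction, and edgeR called 0 of 20394 genes (0%), with 1092 at an unadjusted p under 0.05 and 1 call by the DESeq2 Wald test. Malat1 had the smallest adjusted p, 0.0562, with an interaction of -0.35 ± 0.063 (SE) on the log2 scale. Gm43318 had -0.52 ± 0.12 (adjusted p 0.354) and Reps2 0.12 ± 0.048 (0.852). For Gm10222 it was -0.076 ± 0.067 (0.948).

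In the hippocampus of the same animals, 7 against 7 libraries, edgeR called 0 of 20162 genes (0%), with 1822 at an unadjusted p under 0.05. The DESeq2 Wald test called 14. Of the genes called in cortex, Malat1 differed there by 0.080 ± 0.068 (SE, edgeR adjusted p 0.741), Gm43318 by -0.23 ± 0.12 (0.580), Reps2 by 0.14 ± 0.078 (0.572) and Ppm1e by 0.17 ± 0.096 (0.592). The intragenic TEC genes measured there had a median of -0.038, with 57.6% of 434 lower. With the animal as a block, 3 of 21999 genes (0.0136%) differed between the tissues in the effect of the Mrpl40 label, and none of the 12 cortex calls was among them. They were 1110065P20Rik, Zfp771 and ENSMUSG00000121914, named after their values were seen. The tissue difference of Malat1 was -0.33 ± 0.085 (adjusted p 0.578) and that of Gm43318 -0.29 ± 0.14 (0.879).

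Single libraries decided how many genes passed. Leaving out 1 library at a time gave 0 to 149 calls. The 149 calls (78 higher, 71 lower, all 12 genes included) came without Slc25a1 het replicate 1, the library whose intragenic TEC genes lay at the double het level. No gene passed without Slc25a1 het replicate 2, 5 or 7 or without double het replicate 5. Without each of the other 9 libraries 1 to 15 genes passed: 2, 5 and 4 without Slc25a1 het replicates 3, 4 and 6, and 1, 8, 15, 4, 5 and 6 without double het replicates 1, 2, 3, 4, 6 and 7. The sign of each of the 12 genes held in all of these fits.

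**Figure D5:**
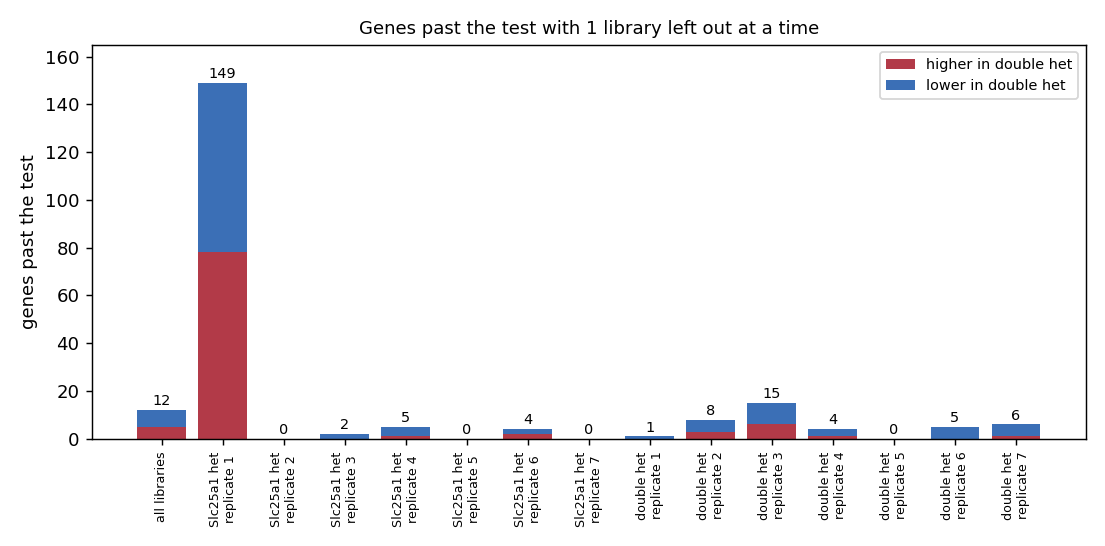
Number of genes past the edgeR test (double het against Slc25a1 het, cortex) with all libraries and without each of the 14 libraries in turn, split by direction. The count is 12 with all libraries, 149 without Slc25a1 het replicate 1 and 0 without each of 4 other libraries.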

How the data were processed

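Poly(A) RNA of 30 cortex and 29 hippocampus samples was sequenced in stranded, paired-end libraries. The authors deposited raw counts per gene, with no normalization, and the submitters' processing notes name FastQC, HISAT2, featureCounts, DESeq2 and the build GRCm39 (mm39), without versions. The table holds 57180 gene rows. Positions, gene types and transcripts were read from GENCODE vM21 on GRCm38, where IDs were found for 19845 of the 20394 genes tested in cortex. Groups were taken from the labels. The members, the gene lists and the tests were chosen with earlier results of these data known.

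Counts were tested with edgeR 4.0.16 in R 4.3.3 (quasi-likelihood test) after TMM scaling, with its filter on low counts, robust dispersion and Benjamini-Hochberg adjustment at 0.05. All 4 genotypes of a tissue were fitted together with 1 mean each; the tissue difference had the animal as a block. Log2 CPM used a prior count of 2. Named were Mrpl40 and Slc25a1, the 7 nuclear copies, all genes past the test, the smallest p up to 10 genes in each direction (mean log2 CPM 0 or more), and 2 members of each list by p, of which 1 is not reported here; TEC genes, their hosts, and genes of the tissue difference were chosen after their values were seen. The gene list of the ATP synthase holds older and newer symbols, of which 15 of 34 were found.

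Alternatives were the Wald test of DESeq2 1.42.0, its size factors within edgeR, no filter, a fold of at least 1.2, fits without the 6 animals against the Slc25a1 label (4 of them here), length and GC content trends as offsets (5 degrees of freedom each, 97.31% of genes with values), only the libraries compared, a block for the replicate number, leaving out the animal block, and each library left out. The fits were tested on simulated data. Python 3.11.15 with numpy 2.4.6 and matplotlib 3.10.9 drew the figures.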

Additional observations from a re-analysis of the deposited data

Results flagged for a closer look

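The effect of the Mrpl40 label differed between cortex and hippocampus for 3 genes in the test of the difference (edgeR with the animal as a block), each lying lower in cortex double het and higher in hippocampus double het. For 1110065P20Rik the difference, cortex minus hippocampus, was -0.82 ± 0.11 (SE, edgeR adjusted p 0.0101), from -0.29 in cortex and 0.53 in hippocampus. For the zinc finger gene Zfp771 it was -0.82 ± 0.13 (adjusted p 0.0374), from -0.23 and 0.55. For ENSMUSG00000121914 it was -1.21 ± 0.20 (adjusted p 0.0374), from -0.42 and 0.74. None of the 3 passed within either tissue.

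Single libraries stood apart from the other 6 of their group for 9 of 224 values checked by Dixon's criterion. Chance gives about 1 in 20, so that this count is no higher than chance alone would give. In double het, Reps2 was 213 CPM in replicate 4, with the next library at 197 CPM, and Gm44677 was 11.3 CPM in replicate 2, with the next at 12.5 CPM. In Slc25a1 het, Mrpl35 was 24.6 CPM in replicate 1 (next 21.7), Ndufb7 41.4 CPM in replicate 5 (next 45.6) and Fdft1 105 CPM in replicate 7 (next 89.3). Among list means in Slc25a1 het, mitochondrial tRNA synthetases had a mean log2 CPM of 4.50 in replicate 5 (next 4.46) and GABA genes 7.15 in replicate 1 (next 7.05). Excitatory neuron markers had 6.98 in replicate 6 (next 7.20), and oligodendrocyte markers 6.91 in replicate 4 (next 6.29).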

How the results depend on the processing

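For double het against Slc25a1 het in cortex, 12 genes passed, 12 with DESeq2 size factors and 16 with offsets for trends in length and GC content, of which 7 were shared with the 12. The count was 65 by the DESeq2 Wald test (33 higher, 32 lower), 20 without a filter (7 higher, 13 lower), and 0 with a fold of at least 1.2, without the animals against the Slc25a1 label and with only the libraries compared, where 266, 1309 and 1703 genes stood at an unadjusted p under 0.05. Leaving out 1 library gave 0 to 149. With the replicate number as a block 0 passed (1791 unadjusted). The correlation of deviations between same-numbered libraries ran from -0.26 to 0.12 over 7 pairs, and 0 of 7 were closest to their own number. These values show no pairing by number, but 7 pairs are too few to settle whether a weak one exists.

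Mrpl40 het against wild type gave 6 calls, 23 by the DESeq2 Wald test and 0 with a fold of at least 1.2 (138 unadjusted). The interaction gave 0 calls, and 1 with DESeq2 size factors, by the DESeq2 Wald test, without a filter and without those animals. Hippocampus gave 0, and 14 by the DESeq2 Wald test; its replicate block gave 0. The tissue difference gave 3, 16 by the DESeq2 Wald test, 7 without a filter, 1 with the offsets, and 0 with a fold of at least 1.2, without those animals and without the animal block.

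The difference of Mrpl40, with SE above its size, turned positive without the animals (0.050) and with the offsets (0.024), and its difference in mean log2 CPM turned to 0.056 without the animals. For the 12 genes past the test, the 264 values under alternatives kept their sign, and 171 of them no longer passed. The TEC medians under alternatives were added after seeing the data; the median of all TEC genes stayed between -0.18 and -0.13. The causes of these changes were not tested.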

Other observations

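Sense-intronic non-coding RNAs, a GENCODE type apart from TEC, lay lower in double het cortex for 73 of 103 genes tested, with a median log2 difference of -0.14 and 0 past the test. Their median was -0.0094 for Mrpl40 het against wild type and -0.057 in hippocampus. Antisense RNAs lay lower for 552 of 933 (median -0.048), long intergenic RNAs for 434 of 826 (median -0.014) and processed pseudogenes for 735 of 1383 (median -0.014). The mean log2 CPM of the sense-intronic genes per library ranged from 0.12 to 0.43 in Slc25a1 het and from 0.081 to 0.15 in double het, with 4 of 7 double het libraries below the lowest Slc25a1 het library.

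Oligodendrocyte markers had a median of 0.020 in cortex double het against Slc25a1 het, with 7 of 12 higher. Over 22 alternatives this median ran from -0.073 (without double het replicate 6) to 0.16 (without Slc25a1 het replicate 4), so that its direction turns with 1 library. They lay higher for 12 of 12 in Mrpl40 het against wild type cortex (median 0.30) and for 12 of 12 in hippocampus double het (median 0.15). Fibroblast and meningeal markers lay higher for 7 of 10 in cortex double het (median 0.075) and lower for 10 of 10 in Mrpl40 het (median -0.33). The cortex double het median ran from -0.15 (without double het replicate 1) to 0.22 (without Slc25a1 het replicate 5) over 22 alternatives, so that 1 library turns its direction too. The differences between these comparisons were not tested.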
